A study of Mus musculus with 8 samples.

Results

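A set of 10 genes that mark bile duct cells (cholangiocytes) and bipotent progenitors of the liver was followed across induced hepatocyte-like lines, primary hepatocytes and fibroblasts. They were the transcription factors Sox9 and Sox4, the surface proteins Epcam, Prom1 and Cd24a, the Notch ligand Jag1, the chloride channel Cftr, the water channel Aqp1, the mucin Muc1 and the secreted phosphoprotein Spp1. A gene was measured where the array's annotation gave it a probe set with 1 gene symbol, and where it had several, the one brightest on average stood for the gene. Of the 10 genes, 9 met that rule, among 17097 genes in all. Spp1 had no such probe set in the annotation used here and was not analysed.

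Total RNA of 8 mouse samples was read on 3' expression arrays, 1 array a sample, as log2 signal. The 3 induced hepatocyte-like (iHep) lines were made by carrying liver transcription factors into fibroblasts with retroviruses and were taken at passage 10: line 4a3 carried Hnf4a and Foxa3, line 4a3CK carried Hnf4a, Foxa3, c-Myc and Klf4, and line 4a1CK carried Hnf4a, Foxa1, c-Myc and Klf4. All 3 lines thus share Hnf4a and a Foxa factor, each is a single array with no repeat, and all were kept in a hepatocyte medium with dexamethasone, insulin, FGF4, HGF and EGF. Primary hepatocytes (PH, 3 arrays, one of them without a number in its title and called PH 3 here) came by collagenase perfusion from livers of male C57/B6 mice aged 8 to 10 weeks and were then cultured in what the labels also call Hep medium, so they are cultured cells and not fresh liver. Mouse embryonic fibroblasts (MEF, 2 arrays) came from C57/B6 embryos at day 13.5 and carried no added factor. No source used here says whether the PH or the MEF arrays came from separate animals or cultures, so a p-value speaks only of the spread among arrays, which may be technical.

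In the developing liver, progenitors called hepatoblasts give rise to hepatocytes and to cholangiocytes, the cells that line the bile ducts. Next to the portal vein, Jag1 on mesenchymal cells activates Notch receptors on hepatoblasts, which then switch on Sox9 and, with Sox4, form the ducts. Epcam, Prom1 and Cd24a are used to sort duct cells and progenitors, while Cftr and Aqp1 serve the secretion of chloride and water into bile. Hepatocytes that are injured or kept in culture are known to take up parts of this duct and progenitor programme.

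The markers did not behave as 1 group. Jag1 and Sox4 were lower in the iHep lines than in PH, Aqp1 was lower in both the lines and PH than in MEF, and Jag1 was higher in PH than in MEF. Sox9 and Cd24a split the lines, Prom1 split the MEF arrays, and Cftr, Muc1 and Epcam held nearly level over all 8 arrays. A gene passed where it reached an adjusted p below 0.05 and differed by 1 or more on the log2 scale, which is 2-fold, in a limma fit of all 8 arrays adjusted over 17097 genes. Of the 9 measured markers 1 passed for iHep against MEF (Aqp1, lower), where 6.45% of all genes passed, 1.98% of all as higher and 4.47% as lower. For iHep against PH 2 passed (Jag1 and Sox4, both lower), where 7.13% of all genes passed, 1.49% of all as higher and 5.64% as lower. For PH against MEF 2 passed (Jag1 higher, Aqp1 lower), where 5.85% of all genes passed, 3.37% of all as higher and 2.47% as lower. With 9 markers, each of these counts is 1 or 2 genes, and the median marker differed by -0.81 for iHep minus MEF (0.16 over all genes), -1.87 for iHep minus PH (-0.09 over all genes) and 1.11 for PH minus MEF (0.25 over all genes). The markers were chosen with earlier results of these arrays known, and these medians only describe them.

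**Figure D1:**
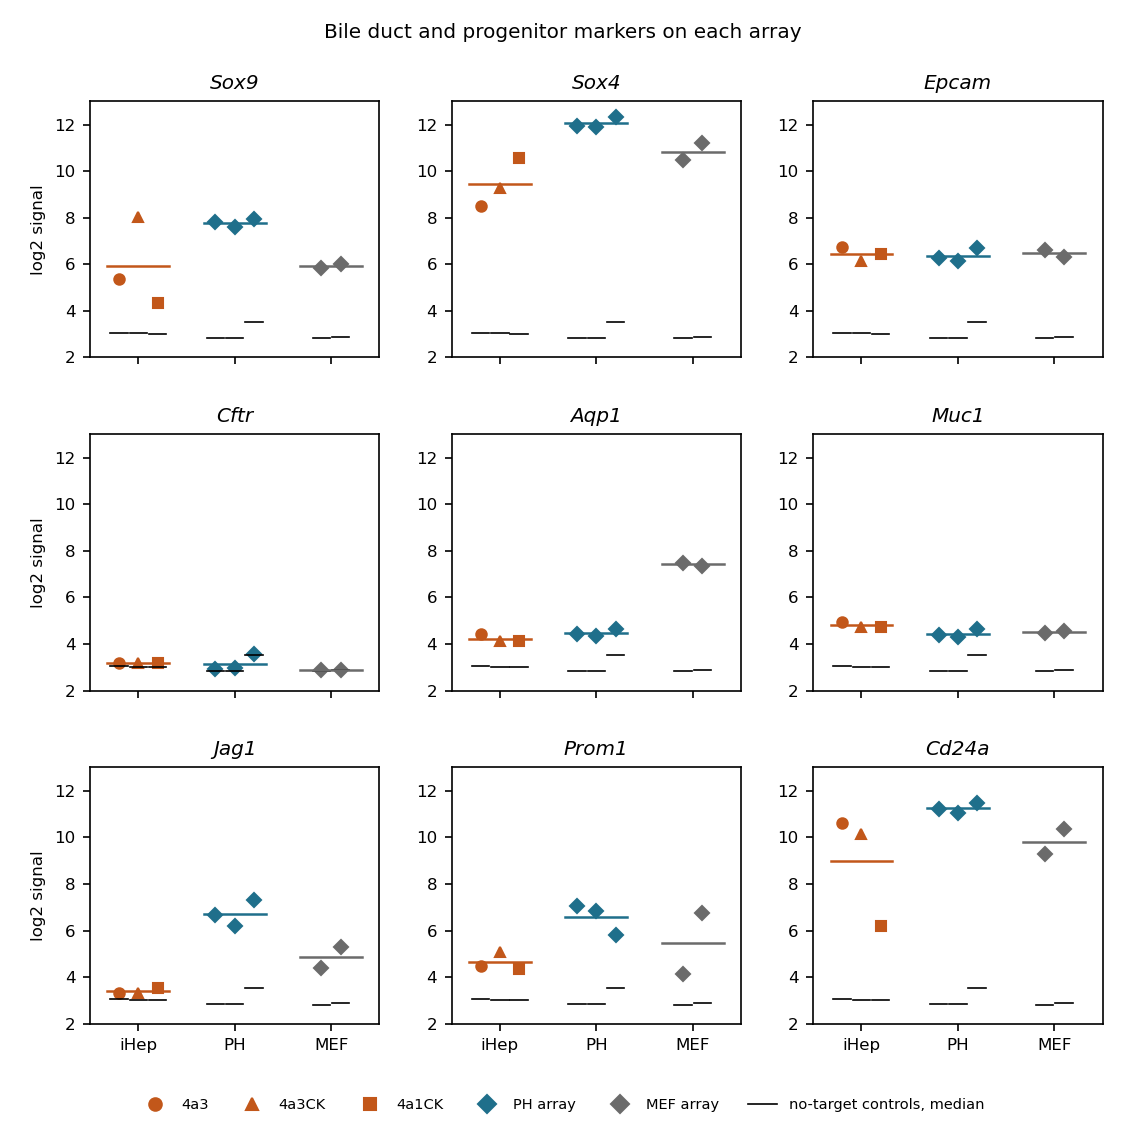
Log2 signal of the 9 measured markers on each array, with the iHep lines (circle 4a3, triangle 4a3CK, square 4a1CK) left of PH and MEF; coloured bars are group means and short black bars the median of control probe sets with no mouse target on the same array. The Jag1 probe set used lies near the control level in the lines, as does Cftr on every array, and Aqp1 stands high only on the 2 MEF arrays.

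Some arrays differed from the rest in ways that touch these values. PH 3 had a median log2 signal of 5.06 over all probe sets, against 4.23 to 4.45 on the other 7 arrays, and 93.2% of genes read higher there than on PH 1 and PH 2 averaged. PH 1 and PH 2 were nearly the same, since their differences over genes had an SD of 0.16, against 0.57 for the MEF pair. The values are used as deposited. After quantile normalization the split of all passing genes moved to 609 higher and 961 lower for iHep against MEF (339 and 764 as deposited). It moved to 526 higher and 800 lower for iHep against PH (254 and 965 as deposited) and to 519 higher and 609 lower for PH against MEF (577 and 423 as deposited). By accession the samples fall in 2 runs, the lines with PH 3 and MEF 2 in the first and PH 1, PH 2 and MEF 1 in the second. Labels were checked with marker lists. Of 14 fibroblast genes 9 were lower in the lines and 10 in PH than in MEF, and of 13 hepatocyte genes 1 was higher in the lines (Apoa1) and 7 in PH than in MEF. Fibroblast genes that passed included Postn, Cdh11, Col3a1, Thy1 and Dcn. Col1a2, Fn1, Pdgfra and Vim passed against MEF neither in the lines nor in PH, and Twist1 did not in the lines. Vim differed from MEF by 0.01 in the lines and -0.12 in PH, and Fn1 by -0.56 and 0.57. Twist1 read 5.78, 5.70 and 7.52 in 4a3, 4a3CK and 4a1CK, against 7.40 and 8.31 in MEF 1 and 2. The hepatocyte genes higher in PH were Alb, Hpx, Ttr, Fgb, Serpina1a, Apoa1 and Cps1. Among the remaining hepatocyte genes the enzymes Cyp2e1, Tat and G6pc differed by 0.59, 0.44 and 0.52 and the receptor Asgr1 by 0.24 between PH and MEF without passing. Larger differences that did not pass either were those of Apob (1.41, adjusted p = 0.0543) and Cyp3a11 (1.46, adjusted p = 0.169). Cyp3a11 read 8.63 on PH 3 and 4.83 and 5.03 on PH 1 and 2. Albumin (Alb) read 9.30 in 4a3, 3.80 in 4a3CK and 4.01 in 4a1CK, 11.87 to 11.94 in PH and 4.12 and 4.01 in MEF 1 and 2. Fgb, Serpina1a and Hpx also split the lines and did not pass against MEF. Fgb read 12.21, 10.92 and 3.36 in 4a3, 4a3CK and 4a1CK, against 2.93 and 3.01 in MEF 1 and 2. Serpina1a read 9.63, 7.38 and 3.06 against 2.98 and 3.44, and Hpx 8.56, 8.01 and 4.92 against 4.73 and 4.81. The remaining hepatocyte genes that did not pass there differed by 0.14 to 0.73 between the lines and MEF.

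Jag1, the ligand that sets the Notch signal, read 3.34 in 4a3, 3.34 in 4a3CK and 3.53 in 4a1CK, 6.68, 6.19 and 7.31 in PH 1, 2 and 3, and 4.39 and 5.30 in MEF 1 and 2. The groups did not overlap, with every line below both MEF arrays and every PH array above them. The lines were lower than PH by a log2 difference of -3.32 ± 0.34 (SE, n = 3 and 3; limma adjusted p = 0.000911) on this probe set. The size depends on the probe set. On the second Jag1 probe set the lines read 4.18, 3.90 and 4.03 in 4a3, 4a3CK and 4a1CK, PH 4.53, 4.44 and 5.33 and MEF 4.13 and 4.38, a difference of -0.73 between lines and PH. With the mean of both probe sets the lines were lower than PH by -2.03 ± 0.29 (adjusted p = 0.00394). In the lines the first probe set lay 0.28 to 0.50 above the median of the control probe sets that have no mouse target, and the second lay 0.87 to 1.12 above it. The first is thus close to background there, and its difference is not an exact fold. PH was higher than MEF by 1.88 ± 0.38 (n = 3 and 2; adjusted p = 0.0216). The call did not hold when MEF 1 was left out (1.43, adjusted p = 0.19), nor when PH 1 was (1.90, adjusted p = 0.0662), nor with the mean of both Jag1 probe sets (1.19, adjusted p = 0.0761). Within the first accession run PH 3 stood 2.01 over MEF 2, and within the second PH 1 and 2 stood 2.04 over MEF 1. The first value includes the brighter signal of PH 3 as a whole. With array medians subtracted, Jag1 read 2.25 on PH 3 and 1.07 on MEF 2. It then read 2.45 and 1.95 on PH 1 and 2 and 0.15 on MEF 1. The lines differed from MEF by -1.44 ± 0.38 without passing (adjusted p = 0.0609), and passed after quantile normalization, at -1.62 (adjusted p = 0.0124), without PH 3 (adjusted p = 0.0192) and with only the lines and MEF in the fit (adjusted p = 0.0409).

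Sox4, a high-mobility-group transcription factor of many progenitor cells, read 8.51 in 4a3, 9.28 in 4a3CK and 10.54 in 4a1CK, 11.94, 11.88 and 12.33 in PH 1, 2 and 3, and 10.46 and 11.19 in MEF 1 and 2. All lines lay below all PH arrays, whereas 4a1CK fell inside the range of the MEF arrays on this probe set. The lines were lower than PH by -2.60 ± 0.48 (n = 3 and 3; adjusted p = 0.0141), a call that was lost without PH 1 (-2.66, adjusted p = 0.0513). Against MEF the lines differed by -1.38 ± 0.53 without passing (adjusted p = 0.182), and passed without 4a1CK, at -1.93 (adjusted p = 0.0285), or with the mean of its 5 probe sets, at -1.62 (adjusted p = 0.0411). PH and MEF differed by 1.22 ± 0.53 (adjusted p = 0.304). The 4 other Sox4 probe sets followed the one used, with r from 0.84 to 0.97 over the 8 arrays, and on each of them every PH array lay above every line. On each of these 4, however, every line also lay below both MEF arrays. On the second brightest, 4a1CK read 7.28 against 7.97 and 9.03 in MEF 1 and 2.

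Since Jag1 and Sox4 were both lower in the lines than in PH, and Aqp1 lower than in MEF, the sequence around their start sites is shown. Each runs 5′ to 3′ on the gene's strand from 250 bases before to 50 bases after the RefSeq start, build GRCm38.p6: Sox4 at chr13:28953650-28953949 (minus strand), Jag1 at chr2:137116471-137116770 (minus strand) and Aqp1 at chr6:55336049-55336348 (plus strand). Capitals mark matches, on either strand, to 9 short motifs. The general promoter elements searched were the box named for its letters CCAAT, the GC box with the letters GGGCGG and the element of the TATA-binding protein with the letters TATAAA. For the added factors the letters were CACGTG for the E-box bound by Myc, TGTTTAC for Foxa proteins, CAAAGTCCA for Hnf4a and CCCCACCC for Klf proteins. The letters TGGGAA stood for Rbpj, the DNA-binding partner of Notch, and the letters GGAATG stood for Tead proteins.
Sox4: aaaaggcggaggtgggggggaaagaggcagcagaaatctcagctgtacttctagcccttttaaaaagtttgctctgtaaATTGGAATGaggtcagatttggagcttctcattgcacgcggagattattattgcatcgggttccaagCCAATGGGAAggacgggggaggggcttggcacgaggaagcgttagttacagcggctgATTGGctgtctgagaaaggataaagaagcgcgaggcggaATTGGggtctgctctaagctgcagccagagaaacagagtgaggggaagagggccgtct
Jag1: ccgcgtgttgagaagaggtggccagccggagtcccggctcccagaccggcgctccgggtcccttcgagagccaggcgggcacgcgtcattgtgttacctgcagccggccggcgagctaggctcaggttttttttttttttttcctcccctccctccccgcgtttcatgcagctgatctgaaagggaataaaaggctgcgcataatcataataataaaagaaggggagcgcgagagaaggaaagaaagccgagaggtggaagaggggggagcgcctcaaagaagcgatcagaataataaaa
Aqp1: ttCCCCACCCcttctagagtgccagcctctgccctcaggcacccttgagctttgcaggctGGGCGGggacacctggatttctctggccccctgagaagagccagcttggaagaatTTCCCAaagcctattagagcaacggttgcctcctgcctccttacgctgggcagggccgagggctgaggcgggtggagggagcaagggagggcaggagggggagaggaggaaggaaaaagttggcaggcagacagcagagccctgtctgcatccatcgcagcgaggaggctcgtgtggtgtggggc

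The Sox4 window held 4 CCAAT boxes, 1 Rbpj and 1 Tead match, one CCAAT box overlapping the Rbpj match by a base and another the Tead match. The Aqp1 window held 1 Klf, 1 GC box and 1 Rbpj match, and the Jag1 window held none of the 9 motifs. Over 32851 mouse promoter windows of 300 bases, 37.4% hold CCAAT, 35.7% the GC box, 25.6% the Rbpj letters, 14.7% the Tead letters, 13.6% the TATA box, 9.99% the Klf letters, 7.15% the E-box, 3.65% the Foxa letters and 0.475% the Hnf4a letters. The Jag1 window had 22 CG pairs, Sox4 12 and Aqp1 8, where the median window had 7. A match to these letters is no proof of binding, and a window without one says only that the letters are not in those 300 bases.

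Sox9, the transcription factor that marks the first duct cells, separated the lines from each other. It read 5.39 in 4a3, 8.04 in 4a3CK and 4.33 in 4a1CK, 7.81, 7.58 and 7.96 in PH 1, 2 and 3, and 5.82 and 6.01 in MEF 1 and 2. Line 4a3CK lay above all PH arrays, while 4a3 and 4a1CK lay below both MEF arrays. The mean difference of the lines from MEF was 0.00 ± 0.88 (adjusted p = 1.0), a mean of 1 high and 2 low arrays. From PH the lines differed by -1.87 ± 0.78 without passing (adjusted p = 0.219), and without 4a3CK the difference was -2.93 and passed (adjusted p = 0.00216). PH stood above MEF on every array, by 1.87 ± 0.88 (adjusted p = 0.351). The same difference of 1.87 passed without 4a3CK (SE 0.34, adjusted p = 0.0136) and with only PH and MEF in the fit (SE 0.31, adjusted p = 0.00675). A second Sox9 probe set ran with the first (r = 0.97 over the 8 arrays), at 4.94, 7.41 and 3.80 in 4a3, 4a3CK and 4a1CK, 7.14 to 7.53 in PH and 4.39 and 4.90 in MEF 1 and 2. There too 4a3CK stood far above the other lines, but within the range of PH, and 4a3 stood above both MEF arrays. The third, at 3.69 to 4.88, did not separate PH from the lines.

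Cd24a, a small glycoprotein of the cell surface that carries many sugars, read 10.62 in 4a3, 10.14 in 4a3CK and 6.19 in 4a1CK, 11.20, 11.06 and 11.46 in PH 1, 2 and 3, and 9.27 and 10.37 in MEF 1 and 2. Line 4a1CK stood far below every other array, and all 3 lines stood below PH. The second Cd24a probe set showed the same, at 4.55 in 4a1CK and 7.69 or more elsewhere. No group difference passed: -2.26 ± 1.01 for iHep minus PH (adjusted p = 0.251; 95% interval -4.56 to 0.04), -0.84 ± 1.13 for iHep minus MEF (adjusted p = 0.71) and 1.42 ± 1.13 for PH minus MEF (adjusted p = 0.62). Without 4a1CK the lines stood 0.86 below PH and 0.56 above MEF, so that line sets both the size and the sign against MEF. The SE of PH minus MEF also takes in the spread of the lines. Their SD was 2.43, against 0.20 in PH and 0.77 in MEF. Every PH array lay above both MEF arrays on both probe sets, so the lack of a call does not show PH and MEF to be alike.

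Prom1, a pentaspan membrane protein of protrusions on progenitor cells, read 4.49 in 4a3, 5.09 in 4a3CK and 4.35 in 4a1CK, 7.05, 6.82 and 5.82 in PH 1, 2 and 3, and 4.15 and 6.76 in MEF 1 and 2. All PH arrays lay above all lines, while MEF 1 was the lowest of the 8 arrays and MEF 2 fell within the range of PH. The lines differed from PH by -1.92 ± 0.62 without passing (adjusted p = 0.108). The same difference passed with only the lines and PH in the fit (SE 0.37, adjusted p = 0.0251). Leaving out either MEF array is no further check, because a single MEF array adds nothing to the spread. PH minus MEF was 1.11 ± 0.70 (adjusted p = 0.541), but -0.94 within the first accession run (PH 3 and MEF 2) and 2.79 within the second (PH 1 and 2 and MEF 1), so no direction can be given.

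Aqp1, the water channel of duct cells, endothelium and red cells, read 4.45 in 4a3, 4.14 in 4a3CK and 4.11 in 4a1CK, 4.44, 4.36 and 4.65 in PH 1, 2 and 3, and 7.49 and 7.34 in MEF 1 and 2. The MEF arrays stood apart from the other 6 with no overlap. It was lower than in MEF by -3.18 ± 0.22 in the lines (n = 3 and 2; adjusted p = 0.000185) and by -2.93 ± 0.22 in PH (n = 3 and 2; adjusted p = 0.000155), and both calls held without any 1 array, with values of -3.29 to -3.11 and -3.02 to -2.86. These 2 comparisons share the MEF arrays. The lines and PH differed by -0.25 ± 0.20 (adjusted p = 0.587; 95% interval -0.71 to 0.21). Of 8 endothelial genes 0 passed in any of the 3 comparisons at this threshold. Their mean log2 signal was 4.05 to 4.08 in the lines, 3.84 to 4.67 in PH and 3.80 and 3.95 in MEF. Pecam1 lay only 0.35 to 0.76 and Vwf 0.47 to 0.72 above the median of the no-target controls, while Kdr lay 2.47 to 3.26 above it. Genes this close to background can hardly show a change, and the part of endothelial cells in the Aqp1 level was not tested.

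Cftr, the chloride channel of the duct's apical membrane, read 3.19 to 3.20 in the lines, 2.91 to 3.56 in PH and 2.87 and 2.88 in MEF. On each array it lay within 0.17 of the median of the no-target controls, and its highest value, on PH 3, went with the highest control median, 3.53. No Cftr transcript was thus measurable above background on any array, and the differences (0.32, 0.05 and 0.27 for iHep minus MEF, iHep minus PH and PH minus MEF; adjusted p = 0.52, 0.959 and 0.641) carry no level. Muc1, a mucin of the apical surface, read 4.96 in 4a3 and 4.75 in both other lines, 4.37, 4.28 and 4.64 in PH, and 4.47 and 4.55 in MEF. Every line lay above every PH and MEF array, by little: 0.39 ± 0.20 over PH (adjusted p = 0.316) and 0.31 ± 0.22 over MEF (adjusted p = 0.468), with the highest end of the 95% intervals at 0.84 and 0.81.

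Epcam, the adhesion protein used most to isolate duct cells and progenitors, passed in no comparison. The probe set used, of a type that can bind several transcripts, read 6.76, 6.15 and 6.45 in 4a3, 4a3CK and 4a1CK, 6.25, 6.15 and 6.71 in PH 1, 2 and 3, and 6.61 and 6.33 in MEF 1 and 2. The other read 4.11 to 4.42 in the lines, 4.18 to 5.10 in PH and 4.06 and 4.08 in MEF, and its highest value was again on PH 3. The groups overlapped on the first, where iHep minus MEF was -0.02 ± 0.28 and iHep minus PH 0.09 ± 0.25 (adjusted p = 0.977 and 0.924; 95% intervals -0.65 to 0.62 and -0.48 to 0.65). With r = 0.32 over the 8 arrays the 2 probe sets did not follow each other, and which of them reads Epcam was not tested.

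**Figure D2:**
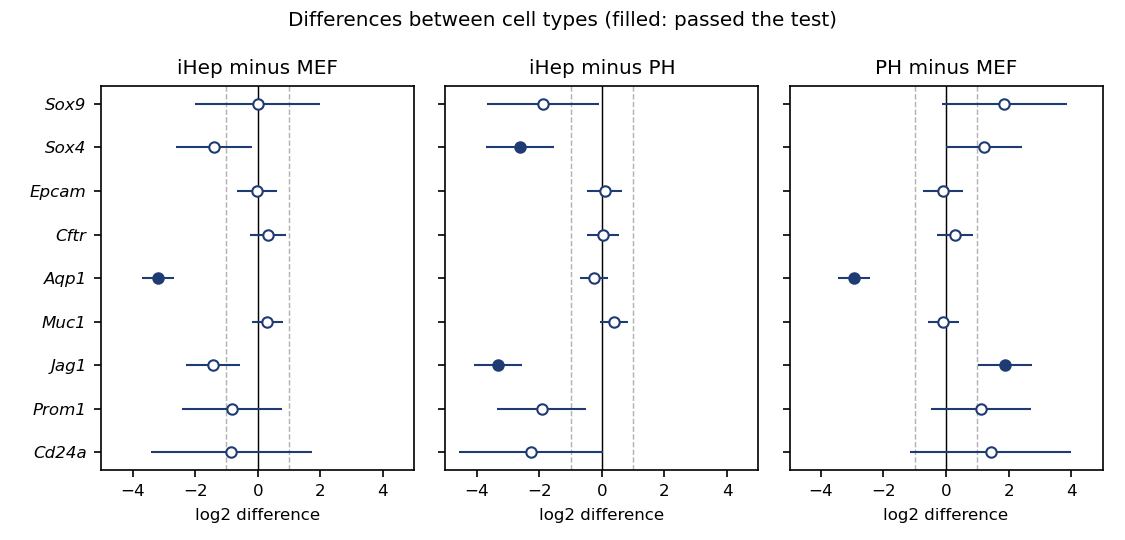
Log2 differences between group means with 95% intervals from the limma fit, for iHep minus MEF, iHep minus PH and PH minus MEF; filled points passed and dashed lines mark a log2 difference of 1 in either direction. Wide bars for Sox9 and Cd24a come with lines that differ from each other, and the bars of Epcam, Cftr and Muc1 stay within 1 of zero.

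**Figure D3:**
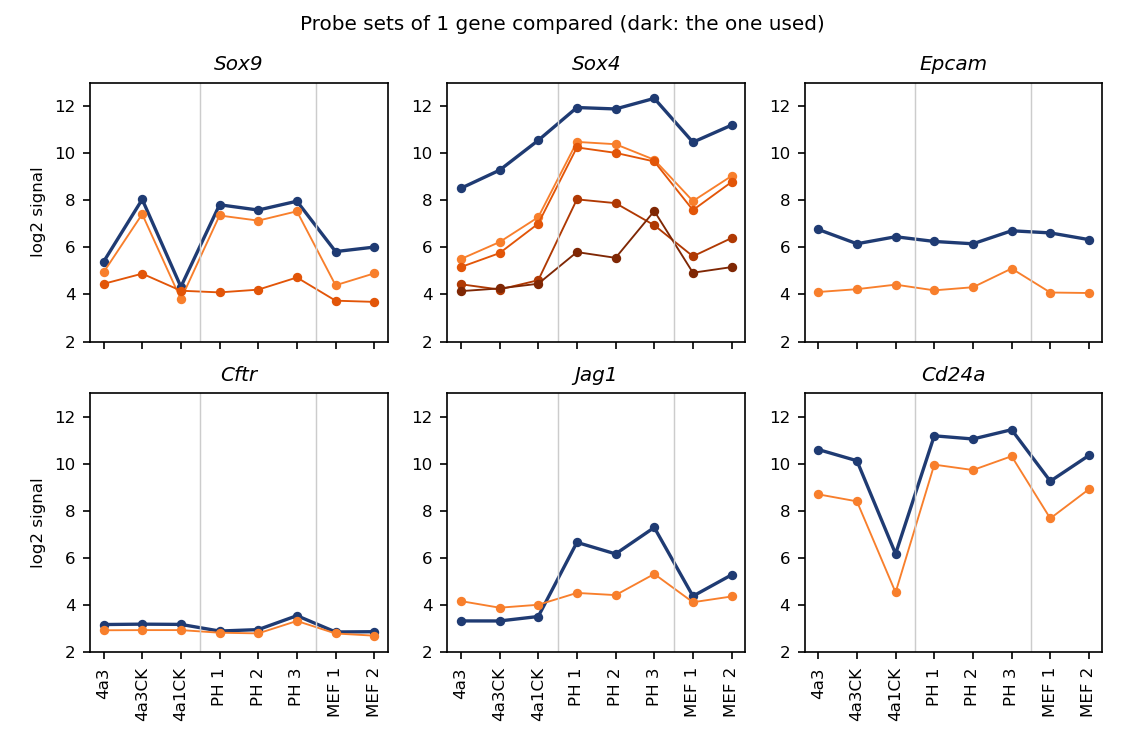
Log2 signal of every 1-symbol probe set of the 6 markers that have several, over the 8 arrays; the dark line is the probe set used and thin lines are the others, and lines only join the values of a probe set. The 2 Cd24a and 2 of the 3 Sox9 probe sets run nearly in parallel, and the 2 Epcam probe sets do not. All Sox4 probe sets are highest in PH but differ in the order of the PH arrays.

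Between lines, which differ by the added factors but have 1 array each, there is no test, and differences were counted from 2 on the log2 scale, which is 4-fold. For 4a3CK against 4a3, where c-Myc and Klf4 were added to Hnf4a and Foxa3, 1 marker passed that size, Sox9 at 2.65, where 2.23% of all genes did: 1.36% of all genes were that much higher and 0.871% that much lower. For 4a1CK against 4a3 Sox4 was at 2.04 and Cd24a at -4.43, where 1.32% of all genes passed that size: 0.638% of all genes were higher and 0.684% lower. Sox4 lay just past the limit: its other probe sets gave 1.78, 1.84, 0.17 and 0.31, and after quantile normalization Sox4 fell short of 2. Cd24a was at -4.17 on its second probe set. For 4a3CK against 4a1CK, which carry Foxa3 and Foxa1 beside the same other factors, Sox9 was at 3.71 and Cd24a at 3.95, where 3.16% of all genes passed that size: 1.8% of all genes were higher and 1.37% lower. The other 6 markers differed by at most 0.73 between any lines. Line and factor set cannot be told apart with 1 line a set.

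Genes whose log2 values ran most like a marker over the 8 arrays were ranked by Pearson's r, for the 6 markers with a range of at least 2. With 8 arrays in 3 groups a high r mostly restates the order of the groups. Nearest to Jag1 were Igsf11 (r = 0.991), Igf1 (0.987) and Zfp971 (0.987), and nearest to Sox4 were Anxa7 (0.992), Plin2 (0.990) and Eif4g3 (0.982). Nearest to Aqp1 were Smoc2 (0.997), Meox2 (0.996) and Cdh11 (0.996), the last a cadherin of mesenchymal cells. Sox9 ran nearest to Cmpk1 (0.967), Lasp1 (0.965) and Fgf13 (0.965), Cd24a to Zfhx3 (0.954), Atp6v1a (0.945) and Rbm25 (0.927), and Prom1 to Ccl6 (0.933), Vac14 (0.930) and Srpk1 (0.929).

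Other genes of duct epithelium moved both ways. Of 18 measured, 2 were higher and 2 lower in the lines than in MEF (22.2% of the list, 6.45% of all genes). In the lines against PH 2 were higher and 4 lower (33.3% and 7.13%). In PH against MEF 4 were higher and 0 lower (22.2% and 5.85%). This and the other lists were chosen with earlier results of these data known, and such shares only describe them. Krt19, a keratin of duct cells, read 10.05, 10.85 and 10.70 in 4a3, 4a3CK and 4a1CK, 8.57, 8.29 and 6.32 in PH and 4.97 and 6.03 in MEF. It was higher in the lines by 5.03 ± 0.65 over MEF (adjusted p = 0.00325) and by 2.81 ± 0.58 over PH (adjusted p = 0.0232). The tetraspanin Tspan8 was higher in the lines by 6.99 ± 0.90 over MEF (adjusted p = 0.00314) and 3.45 ± 0.80 over PH (adjusted p = 0.0367). In MEF it read 2.85 and 2.83, within 0.05 of the no-target control median, so the first difference is one from background and not an exact fold. Krt7, the keratin paired with Krt19 in duct cells, read 3.73 to 4.09 in the lines, 4.31 to 5.23 in PH and 3.82 and 4.46 in MEF, and passed in no comparison.

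The duct genes lower in the lines included Bicc1, an RNA-binding protein of kidney and bile duct tubules, which read 5.78, 7.30 and 6.46 in 4a3, 4a3CK and 4a1CK, 10.98, 10.95 and 11.06 in PH and 9.60 and 8.54 in MEF. It differed by -4.48 ± 0.41 from PH (adjusted p = 0.000535) and -2.55 ± 0.46 from MEF (adjusted p = 0.0146). The claudins of tight junctions Cldn3 (-3.17 ± 0.58, adjusted p = 0.0141) and Cldn4 (-2.81 ± 0.35, adjusted p = 0.00254) were lower in the lines than in PH, and both were higher in PH than in MEF, by 5.43 and 2.90. The anion exchanger Slc4a2, which secretes bicarbonate in duct cells, was lower in the lines than in PH by -1.82 ± 0.24 (adjusted p = 0.00314), and also lower than in MEF (adjusted p = 0.00349). Pkhd1, a protein of the duct cell's cilium, was higher in PH than in MEF by 1.15 ± 0.27 (adjusted p = 0.0461).

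Of 14 measured hepatoblast and progenitor genes, 5 were higher and 3 lower in PH than in MEF (57.1% of the list, 5.85% of all genes). In the lines against PH 1 was higher and 4 lower (35.7% and 7.13%). In the lines against MEF 0 were higher and 2 lower (14.3% and 6.45%). Factors of the early liver bud made up the higher ones in PH: Hhex was at 5.68 ± 0.26 (adjusted p = 1.66e-05), Onecut1 at 3.17 ± 0.22 (adjusted p = 0.000101), Onecut2 at 2.10 ± 0.22 (adjusted p = 0.000783) and Prox1 also passed (adjusted p = 0.015), beside the fetal plasma protein Afp at 6.96 ± 1.58 (adjusted p = 0.0377). Afp split the lines, at 8.96 in 4a3, 2.86 in 4a3CK and 2.85 in 4a1CK, against 3.05 and 3.22 in MEF 1 and 2. Line 4a3 thus stood far above MEF in Afp, although the lines as a group did not pass. Afp, Prox1 and the duct gene Pkhd1 lay only 0.13 to 0.34 above the no-target control median in MEF. Onecut1 lay 0.44 and 0.75 above it in MEF 1 and 2. Differences of these genes from MEF are thus not exact folds. Hhex, Onecut1, Onecut2 and Prox1 were also the 4 that were lower in the lines than in PH, with Hhex at -4.98 ± 0.24 (adjusted p = 2.15e-05) and Onecut1 at -2.75 ± 0.20 (adjusted p = 0.00014). In the lines Onecut1 lay 0.78 to 0.86 above the no-target control median. Prox1 lay 1.61, 0.43 and 0.11 above it in 4a3, 4a3CK and 4a1CK. For Onecut1 and Prox1 the differences from PH are thus not exact folds either. Igf2bp3, an RNA-binding protein of fetal tissue, was higher in the lines than in PH by 3.23 ± 0.33 (adjusted p = 0.000911) and lower in PH than in MEF by -3.34 ± 0.37 (adjusted p = 0.00105). The adhesion molecule Ncam1 (-3.63 ± 0.83, adjusted p = 0.0392) and Tbx3 were the others that were lower in PH than in MEF. The hyaluronan receptor Cd44 (-1.54 ± 0.21, adjusted p = 0.00377) and the T-box factor Tbx3 (-1.41 ± 0.27, adjusted p = 0.0193) were the 2 that were lower in the lines than in MEF.

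In the Notch pathway, beside Jag1, 26 genes were measured. In the lines against MEF 1 was higher and 1 lower (7.69% of the list, 6.45% of all genes). In the lines against PH 1 was higher and 2 were lower (11.5% and 7.13%). In PH against MEF 0 were higher and 1 was lower (3.85% and 5.85%). With 1 to 3 genes a comparison, these counts do not set the list apart from all genes. Nrarp, a target and feedback inhibitor of Notch, read 6.07, 6.90 and 6.72 in 4a3, 4a3CK and 4a1CK, 5.13, 5.27 and 5.77 in PH and 5.22 and 5.04 in MEF. All lines lay above all other arrays, by 1.43 ± 0.32 over MEF (adjusted p = 0.0328) and 1.17 ± 0.28 over PH (adjusted p = 0.0404). The receptor Notch1 (-1.53 ± 0.32, adjusted p = 0.0245) and the protease subunit Psen2 (-1.01 ± 0.22, adjusted p = 0.0286) were lower in the lines than in PH, and Rbpj was lower than in MEF in the lines (-1.22 ± 0.27, adjusted p = 0.0351) and in PH (-1.20 ± 0.27, adjusted p = 0.0391). The target Hes1 read 7.48 to 8.65 in the lines, 7.10 to 7.58 in PH and 6.23 and 7.57 in MEF and did not pass.

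Yap and Tead form the other switch toward duct fate, and 17 genes of that pathway were measured. Of these 3 were lower in the lines than in MEF (17.6% of the list, 6.45% of all genes). In the lines against PH 4 were lower (23.5% and 7.13%), and in PH against MEF 2 were higher (11.8% and 5.85%). In the opposite directions 0 were called. Ankrd1, a known Yap target, read 4.01, 3.96 and 4.03 in 4a3, 4a3CK and 4a1CK, 8.86, 8.51 and 9.43 in PH and 5.95 and 8.07 in MEF. It was lower in the lines than in PH by -4.93 ± 0.49 (adjusted p = 0.00082) and than in MEF by -3.01 ± 0.55 (adjusted p = 0.0162), with every line below every other array. Tead2 was lower in the lines by -2.62 ± 0.46 against PH (adjusted p = 0.0122) and -2.91 ± 0.52 against MEF (adjusted p = 0.0145). Ajuba and Stk4, members of the Hippo pathway that acts on Yap, were lower in the lines than in PH (-1.84 ± 0.23 and -1.46 ± 0.22, adjusted p = 0.00254 and 0.00567). They were also the 2 that were higher in PH than in MEF (adjusted p = 0.0292 and 0.0378). The kinase Lats2 was lower in the lines than in MEF (-1.61 ± 0.36, adjusted p = 0.0363). Ccn1, Ccn2 and Amotl2, further Yap targets, passed in no comparison.

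**Figure D4:**
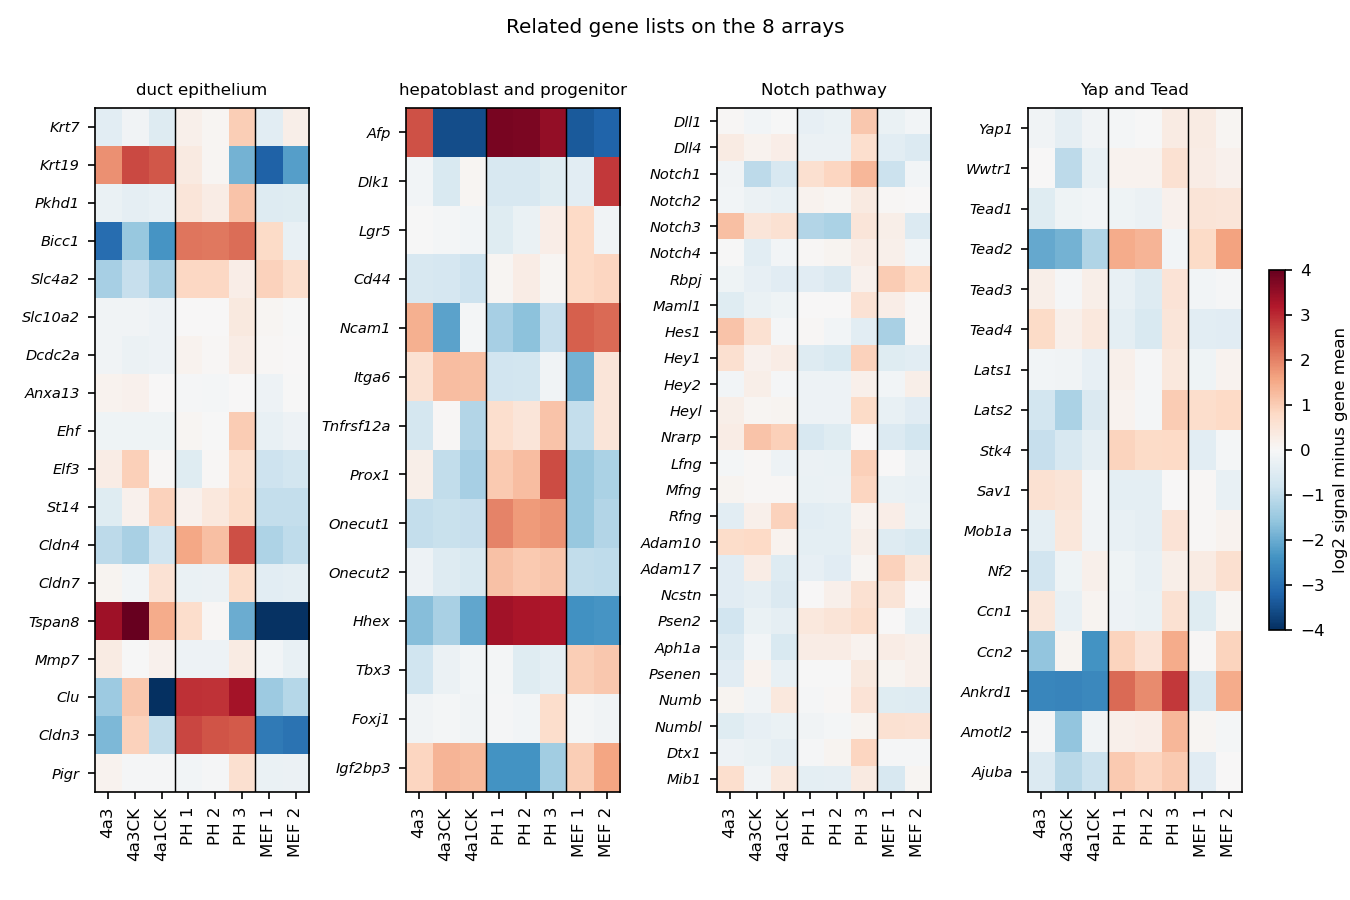
Log2 signal minus the gene's mean over the 8 arrays, for the measured genes of the duct epithelium, hepatoblast and progenitor, Notch and Yap and Tead lists, with the iHep lines left of PH and MEF. Krt19 and Tspan8 are highest in the lines, while Hhex, Onecut1, Bicc1, Cldn4 and Ankrd1 are highest in PH.

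Of 18 measured near relatives of the markers, 1 was higher in the lines than in MEF (5.56% of the list, 6.45% of all genes). In the lines against PH 1 was higher (5.56% and 7.13%), and 1 was higher and 1 lower in PH than in MEF (11.1% and 5.85%). With 1 or 2 genes a comparison, these counts do not set the relatives apart from other genes. Sox11, the closest relative of Sox4 with Sox12, read 8.52, 5.44 and 6.35 in 4a3, 4a3CK and 4a1CK, 3.56, 3.66 and 4.37 in PH and 7.66 and 8.38 in MEF. It was higher in the lines than in PH by 2.91 ± 0.69 (adjusted p = 0.0389), where Sox4 was lower, and lower in PH than in MEF by -4.15 ± 0.77 (adjusted p = 0.0148). Abcc4, a transporter of the same superfamily as Cftr, was higher in the lines (2.99 ± 0.62, adjusted p = 0.0254) and in PH (4.62 ± 0.62, adjusted p = 0.00286) than in MEF.

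Markers of other cell types were set beside Jag1 and Sox4. Between the lines and PH 7.13% of all genes passed. Of the fibroblast list 21.4% passed, of the smooth muscle and stellate list 14.3%, of the macrophage list 12.5% and of the endothelial list 0.0%. Each share rests on few genes. In bulk samples fewer cells of a type and less RNA per cell cannot be told apart. The contractile actin Acta2, a gene of smooth muscle and activated stellate cells, read 5.41 to 5.60 in the lines, 7.51 to 9.53 in PH and 12.12 and 11.90 in MEF 1 and 2, and was lower in the lines than in PH by -3.30 ± 0.48 (adjusted p = 0.00531). Of 14 fibroblast genes 1 was higher and 2 were lower in the lines than in PH, with a median of -0.18. The transcription factor Twist1 was higher (2.75 ± 0.50, adjusted p = 0.0141), and the matrix proteins Dcn (-2.68 ± 0.52, adjusted p = 0.0174) and Postn (-1.61 ± 0.32, adjusted p = 0.0206) were lower. Of 7 smooth muscle and stellate genes 1 passed for iHep against PH, and the mean of the list was 4.27 to 4.31 in the lines, 4.94 to 5.07 in PH and 5.82 and 5.64 in MEF 1 and 2. Of the same list Lrat, Reln and Des passed in no comparison, and Rgs5, a pericyte gene, was lower in the lines than in MEF (-1.16 ± 0.26, adjusted p = 0.0363). Lrat lay 0.19 to 1.16 above the no-target control median, close to background, so its lack of a call says little of stellate cells. Of 8 macrophage genes Lyz2 alone passed for iHep against PH (-1.22 ± 0.28, adjusted p = 0.0351), with the list's mean at 4.41 to 4.56 in the lines, 4.86 to 5.28 in PH and 5.40 and 5.49 in MEF. In PH against MEF Lyz2 and Adgre1 were lower, and Cd14, which hepatocytes can also express, was higher (3.59 ± 0.80, adjusted p = 0.0343). The part of such cells in the levels of Jag1, Sox4 and the other markers in PH was not tested.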

How the data were processed

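RNA of 8 mouse samples was read on 8 arrays. Each deposited value is the log2 signal of a probe set, which the authors computed with RMA (robust multi-array averaging) in Partek, per the submitters' processing notes. Tool versions are not given here. Precision is limited by how many arrays there are.

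Of 45141 probe sets 28898 carried 1 gene symbol, for 17097 genes, 551 carried several, 15588 had none here and 104 were controls. Values were used as deposited. Groups came from the sample titles. All 8 arrays entered a 3-group model (lmFit and eBayes of limma 3.58.1, R 4.3.3), with 5 residual degrees of freedom, two-sided, with Benjamini-Hochberg adjustment over 17097 genes. Background was the median of 23 control probe sets that match no mouse transcript. The fit was tested on simulated data. Tables used Python 3.11.15, pandas 2.3.3, numpy 2.4.6 and matplotlib 3.10.9; symbols and start sites came from RefSeq on GRCm38.p6.

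The markers and the 10 other gene lists (143 measured of 155 genes) were chosen with earlier results of these data known. Named were all markers, up to 4 passing genes with the largest difference of each list and comparison, genes of the lists that check a label, and the 3 genes nearest to each marker with a range of at least 2. Hes1, Krt7, Ccn1, Ccn2, Amotl2, Onecut2, Lrat, Reln and Des were named after their values were seen, beside their lists' counts. Alternatives were other choices of probe set, a filter on dim genes, 2 scalings, another variance model, a model of only the compared groups, a stricter threshold, blocks by replicate number, accession run and bacterial control level, PH 1 and 2 averaged, and leaving out each array. A crossed block and quantile normalization without PH 3 were chosen after seeing the data. Same-numbered MEF and PH arrays did not deviate together (r = -0.20). PH 1 and PH 2 hardly differ (SD 0.16 over genes), so this r can neither show nor exclude a pairing. The numbers were not taken as pairs in the main fit.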

Additional observations from a re-analysis of the deposited data

How the results depend on the processing

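Of 546 values of single markers under an alternative, 522 kept their side of the threshold and their direction where one was called, 17 gained a call, 7 lost one and 0 turned round. As reported only 1, 2 and 2 of the 9 markers were called in the 3 comparisons. Most of the 522 are thus values that stayed without a call. Leaving out an array of the group not compared also leaves the difference itself unchanged. For iHep against MEF the count of markers was 2, not 1, with the mean of all probe sets, quantile normalization (with or without PH 3), array medians subtracted, only the compared groups, the accession run as a block and the bacterial control level as a block. All genes passing there numbered 1103, against 324 at the stricter threshold (adjusted p under 0.01 and a log2 difference of 2), 2418 with the bacterial control block and 1759 after quantile normalization without PH 3. For iHep against PH 1 marker passed at the stricter threshold, as Sox4 did not reach it, and the 1219 genes became 295 at that threshold, 2951 with the bacterial control block, which holds the lines on 1 side, and 588 with PH 1 and 2 averaged. For PH against MEF 1 marker passed with the mean of all probe sets and at the stricter threshold, where 433 of 1000 genes passed. For 4a1CK against 4a3 quantile normalization left 1 of 2 markers, Cd24a. Leaving out each array gave 1 to 2 markers and 471 to 1874 genes for iHep against MEF, 1 to 3 markers and 576 to 1806 genes for iHep against PH, and 1 to 3 markers and 575 to 1156 genes for PH against MEF. With the replicate number as a block (PH 1 and 2, MEF 1 and 2) 2 markers and 900 genes passed for PH against MEF, with Sox9 gained (adjusted p = 0.0463) and Jag1 lost (adjusted p = 0.181). The crossed pairing gave 3 markers and 1307 genes. Array scalings moved the median of all genes to between -0.03 and 0.02 in each comparison, and no called marker changed direction. The causes of these moves were not tested.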
